A study of Laodelphax striatellus with 6 samples.

Results

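The membrane transporters of the small brown planthopper, Laodelphax striatellus, a sap-feeding pest of rice, were followed in insects treated with β-asarone and in untreated controls. They are the assembled genes whose protein description names a solute carrier, a sugar, trehalose, glucose, amino acid, monocarboxylate, zinc, organic cation or nucleoside transporter, an aquaporin, an ADP,ATP carrier or the sodium/potassium-transporting ATPase. ATP-binding cassette proteins and descriptions with the word acetylcholine were left out. This choice, made by words alone, gave 83 of the 59004 assembled genes in the table. Poly(A) RNA of whole wild-type insects was sequenced in 3 control libraries and 3 libraries of insects treated with β-asarone, a phenylpropanoid of plants. The study asked how the compound acts on detoxification. The labels state no dose, exposure time, sex, stage or number of insects per library. Nothing in them says that the 3 libraries of a group were separate groups of insects, so a p-value here reflects only how far these libraries spread, and that spread may be technical. Values are TPM, a length-corrected share of each library's transcripts, and read depth is unknown.

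Solute carriers are membrane proteins that move a substrate down its own gradient or couple it to the gradient of sodium, protons or another ion. The sodium/potassium-transporting ATPase makes the sodium gradient by spending ATP. In insects trehalose is the main sugar of the haemolymph, and facilitated trehalose transporters such as Tret1 let it leave the fat body and enter other cells. Sap feeders take in much sugar and water and few essential amino acids, so sugar carriers, aquaporins and amino acid carriers all serve their way of feeding.

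Of the 83 transporter genes, 57 had a planthopper protein as best hit, 54 of them in the brown planthopper Nilaparvata lugens and 3 in L. striatellus itself. A further 10 had another arthropod and 16 an animal outside the arthropods as best hit. Whether these rows come from the planthopper itself or from another organism in the samples was not tested. Of all table rows with a best hit in L. striatellus, 97.8% were described as hypothetical or uncharacterized. A transporter with such a description is therefore not among the 83. Several rows can be fragments or near-identical copies of 1 gene, such as the Tret1 rows, the cationic amino acid transporter 2 rows and the 3 zinc transporter 2 rows of 1 assembly cluster. Their separate values are uncertain.

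Control replicate 2 and asarone replicate 2 stood apart over the whole table. The median-of-ratios size factor, which measures the typical level of the tested genes, was 0.777 in control replicate 2 and 0.994 to 1.13 in the other libraries. Asarone replicate 2 held 560 assembled genes found in it alone, meaning at least 2 TPM there and no more than 5% of that level anywhere else, against 100 to 228 in the other libraries. Whole-body RNA held markers of several tissues. Summed markers of gut were at 138 to 160 TPM, of sperm and cilium at 17.2 to 42.8 TPM and of the nervous system at 18.7 to 40.6 TPM, while the 2 fat body and haemolymph markers found reached only 1.17 to 2.27 TPM. The 30 muscle markers, 21 of them above 0 in every library, summed to 2883, 2017 and 2562 TPM in control replicates 1, 2 and 3 and to 2953, 1933 and 2209 TPM in asarone replicates 1, 2 and 3.

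No transporter gene passed the threshold between treated and control insects, and levels were modest throughout. Testing required an average of 1 TPM or more across libraries, which kept 56 of the 83 transporters and left 27 out. The last ones left out and the first ones kept stood at 0.94 TPM (solute carrier family 35 member C2, TRINITY_DN11148_c0_g1) and 1.06 TPM (a Tret1-like gene, TRINITY_DN31994_c0_g2). Means reached 38.4 TPM at most, 13 genes had a mean of at least 10 TPM, and the 10 most abundant genes held 51.4% of the summed level. Limma called 0 of the 56 at an adjusted p under 0.05, with adjusted p-values of 0.980 to 1.00, where 0.00403% of all tested genes were called. At an unadjusted limma p under 0.05 it found 1 of the 56, and 3.47% of all tested genes. The log2 change of TPM + 1 (asarone minus control) was under 0.5 in size in 52 of the 56, and the 95% limma interval lay within 1 log2 unit of 0 in 44 of them.

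Together the 83 genes summed to 473, 368 and 500.4 TPM in control replicates 1, 2 and 3 and to 507, 409 and 391 TPM in asarone replicates 1, 2 and 3. Control replicates 1 and 3 and asarone replicate 1 were high and the other 3 libraries low, so the groups overlapped. The same 3 libraries held the most muscle marker RNA, and the part of tissue make-up in these sums was not tested. In whole-body RNA, fewer cells of a type and less RNA per cell cannot be told apart. Of the tested genes 34 stood higher and 22 lower in treated insects, where 62.8% of all tested genes stood higher. Their median log2 change was 0.057, beside 0.084 over all tested genes. The split was 24 higher and 32 lower after median-of-ratios or trimmed-mean scaling, 25 and 31 after quantile normalization, and 13 and 43 without control replicate 2. All tested genes shifted the same way under these alternatives, from 15590 higher and 9226 lower to 12617 and 12199 with median-of-ratios factors, 12794 and 12022 with trimmed-mean factors, 12767 and 12049 after quantile normalization, and 10648 and 14168 without control replicate 2.

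**Figure D1:**
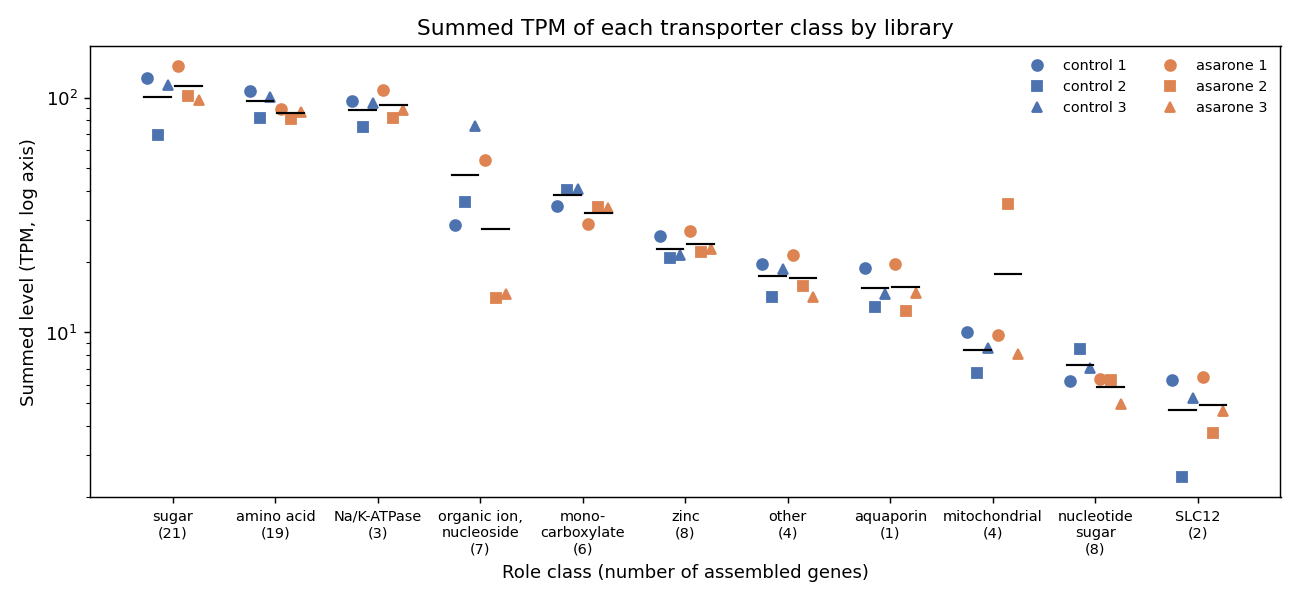
Summed TPM on a log axis of each of the 11 transporter classes, with the number of assembled genes in each, in 3 control (blue) and 3 asarone (orange) libraries; marker shapes are replicate numbers and lines are group means. Sugar, amino acid and Na/K-ATPase genes had the highest sums, and only the monocarboxylate sums of the groups did not overlap.

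The sugar class was the most abundant and had 21 assembled genes. It summed to 121, 69.4 and 113 TPM in control replicates 1, 2 and 3 and to 136, 102 and 97.6 TPM in asarone replicates 1, 2 and 3. The low value of control replicate 2 set the control mean, and the groups overlapped. Of the 15 tested genes 12 stood higher and 3 lower after treatment (median log2 change 0.18), where 62.8% of all tested genes stood higher. The split was 11 and 4 under each of the 3 other scalings. Without control replicate 2 it was 6 higher and 9 lower, with a median of -0.019, and without asarone replicate 1 it was 8 and 7. None of these 15 genes passed the threshold.

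Trehalose transporters made up most of the sugar class. The most abundant of several rows named Tret1 (TRINITY_DN7718_c0_g1) was at 24.4, 14.5 and 17.7 TPM in control replicates 1, 2 and 3 and at 25.1, 17.4 and 20.2 TPM in the asarone replicates 1, 2 and 3. The most abundant row named as a Tret1-2 homologue (TRINITY_DN1659_c0_g1) was at 22.7, 12.3 and 19.8 TPM and at 21.8, 20.8 and 18.3 TPM. In both the lowest library was control replicate 2 and the groups overlapped, and together they held 33.2% to 39.4% of the class in a library. Their log2 changes were 0.16 (SE 0.23) and 0.18 (SE 0.24). Summed over all 9 rows that name a trehalose transporter, levels were 63.7, 37.8 and 64.7 TPM in control and 75.5, 57.1 and 51.5 TPM in treated insects. Of the 8 tested, 7 stood higher, but 4 of 8 stood lower without control replicate 2. The only one lower with all libraries, TRINITY_DN31994_c0_g2, has a sawfly (Athalia rosae) as best hit. It was at 1.05, 1.35 and 1.3 TPM in control and 0.82, 0.96 and 0.87 TPM in treated insects, without overlap and with a log2 change of -0.24 (95% limma interval -0.76 to 0.27).

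Tret1-like gene TRINITY_DN8517_c0_g1 was the most variable sugar carrier between libraries of the same group. It was listed at 0, 1.78 and 12.3 TPM in control replicates 1, 2 and 3 and at 7.96, 4.70 and 0 TPM in the asarone replicates 1, 2 and 3. Each group thus held a library at 0 and a library near or above 8 TPM. The SD of its log2 values within groups was 1.78, above 99.7% of the tested genes.

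Among the other sugar carriers, SWEET1, a uniporter of a family first known from plants, had the smallest unadjusted p of its class. It (TRINITY_DN20946_c0_g1) was at 7.33, 6.60 and 8.18 TPM in control and at 12.4, 8.48 and 8.16 TPM in treated insects. The highest control library and the lowest treated one were nearly equal, and asarone replicate 1 alone stood well above the rest. Its log2 change was 0.33 (SE 0.20, limma adjusted p = 0.980) and 0.16 without asarone replicate 1. A sugar transporter known from L. striatellus itself (TRINITY_DN2045_c0_g2) was at 9.43, 5.21 and 7.80 TPM in control and at 12.7, 8.75 and 8.56 TPM in treated insects, a log2 change of 0.39 (95% limma interval -0.22 to 1.00). The highest control library lay within the treated range there too, and the change was 0.18 without control replicate 2. Glucose transporter type 1 (TRINITY_DN628_c0_g1), of the family that takes up glucose by facilitated diffusion, was at 11.1, 7.68 and 9.68 TPM in control and at 9.25, 9.16 and 9.28 TPM in treated insects. Sugar transporter TRINITY_DN5609_c1_g1 ranged over 5.13 to 16.1 TPM in control and 9.01 to 14.6 TPM in treated insects. The 6 untested sugar genes had means under 1 TPM, among them both other rows named only as L. striatellus sugar transporters.

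Amino acid transporters, 19 assembled genes, summed to 106, 82.3 and 101 TPM in control replicates 1, 2 and 3 and to 89.7, 81.4 and 87.0 TPM in asarone replicates 1, 2 and 3. Control replicate 2 lay within the treated range, so the groups overlapped, while after median-of-ratios scaling they did not (95.6 to 106 against 79.7 to 87.5 TPM). Of 15 tested genes 6 stood higher and 9 lower, with a median log2 change of -0.050, and the split was 5 and 10 under each of the 3 other scalings. It was 11 and 4 without control replicate 1 and 2 and 13 without control replicate 2. The members of 2 families within the class leaned to opposite sides. These families were set apart after their values were seen, and the difference between them was not tested.

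Cationic amino acid transporters, which carry arginine, lysine and ornithine, stood lower in treated insects in all 7 rows, where 37.2% of all tested genes stood lower. Their summed level was 61.2, 59.7 and 64.2 TPM in control replicates 1, 2 and 3 and 46.4, 50.0 and 53.3 TPM in asarone replicates 1, 2 and 3. Every treated library was below every control library, also after median-of-ratios scaling (55.1 to 76.8 against 41.2 to 53.6 TPM). The scaled separation did not hold without the row TRINITY_DN35981_c0_g1, described below. The ratio of group means was 0.808. All 7 also stood lower under the 3 other scalings and without control replicate 2, while 4 of 7 did so without control replicate 1 5 of 7 without control replicate 3 or asarone replicate 2 and 6 of 7 without asarone replicate 1 or 3.

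A cationic amino acid transporter 2 row (TRINITY_DN35981_c0_g1) was the only transporter with an unadjusted limma p under 0.05. It was at 6.49, 5.72 and 7.91 TPM in control replicates 1, 2 and 3 and was listed at 0, 1.56 and 4.32 TPM in the asarone replicates 1, 2 and 3. The groups did not overlap, and treated insects spread more widely than controls. Its log2 change was -1.68 (SE 0.58, limma adjusted p = 0.980), and -1.05 without asarone replicate 1. Its unadjusted p was not under 0.05 with a pseudocount of 0.1, where the log2 change was -2.90, nor without any single control library or asarone replicate 2. Without control replicate 1, monocarboxylate transporter 6 (TRINITY_DN12025_c0_g1) was under 0.05 in its place. Without TRINITY_DN35981_c0_g1 the family summed to 54.7, 54.0 and 56.3 TPM in control and to 46.4, 48.4 and 49.0 TPM in treated insects, before scaling. After division by the median-of-ratios factors (1.11 in control replicate 1 and 0.994 in asarone replicate 3) these sums overlapped narrowly between groups. That row was the only 1 of the 7 in the family whose groups did not overlap. High affinity cationic amino acid transporter 1 (TRINITY_DN9721_c0_g1), an arginine and lysine carrier in mammals, was at 7.35, 11.6 and 5.56 TPM in control and at 3.99, 5.93 and 5.36 TPM in treated insects. Only control replicate 3 of the controls lay within the treated range, and the log2 change was -0.55 (95% limma interval -1.22 to 0.12), or -0.29 without control replicate 2. The most abundant row of the family (TRINITY_DN303_c0_g1) was at 18.6, 23.3 and 23.0 TPM in control and at 15.4, 21.6 and 21.8 TPM in treated insects. Another abundant row (TRINITY_DN2453_c0_g2) was at 14.2, 9.09 and 14.8 TPM and at 13.8, 10.2 and 12.2 TPM. Both overlapped between groups, with log2 changes of -0.14 (SE 0.19) and -0.050 (SE 0.22). Cationic amino acid transporter 3 (TRINITY_DN5502_c0_g1) was at 6.76 ± 1.64 and 5.97 ± 0.573 TPM (SD, n = 3).

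Proton-coupled amino acid transporters, which use a proton gradient and include the Drosophila growth regulator pathetic, stood higher in all 5 tested rows of 6. Over all tested genes 62.8% stood higher. The 6 rows summed to 33.4, 18.4 and 30.5 TPM in control replicates 1, 2 and 3 and to 34.7, 27.2 and 28.2 TPM in asarone replicates 1, 2 and 3. Control replicate 2 was again the low library, and without it 1 stood higher and 4 lower, while each of the 3 other scalings gave 4 higher and 1 lower. The pathetic-like rows were at 10.8 ± 3.31 and 11.1 ± 1.91 TPM (TRINITY_DN606_c0_g1) and at 5.93 ± 1.93 and 6.95 ± 0.517 TPM (TRINITY_DN248_c0_g1) in control and treated insects (SD, n = 3). Excitatory amino acid transporter 2 (TRINITY_DN36399_c0_g1), which clears glutamate from synapses, was at 4.82, 0.29 and 0.92 TPM in control and at 2.27, 0.18 and 1.10 TPM in treated insects. Replicate 1 was the high library in both groups, as it was for the summed markers of the nervous system. These were at 40.6, 18.7 and 29.6 TPM in control and 34.8, 25.8 and 26.3 TPM in treated insects, and their part in the transporter's spread was not tested.

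**Figure D2:**
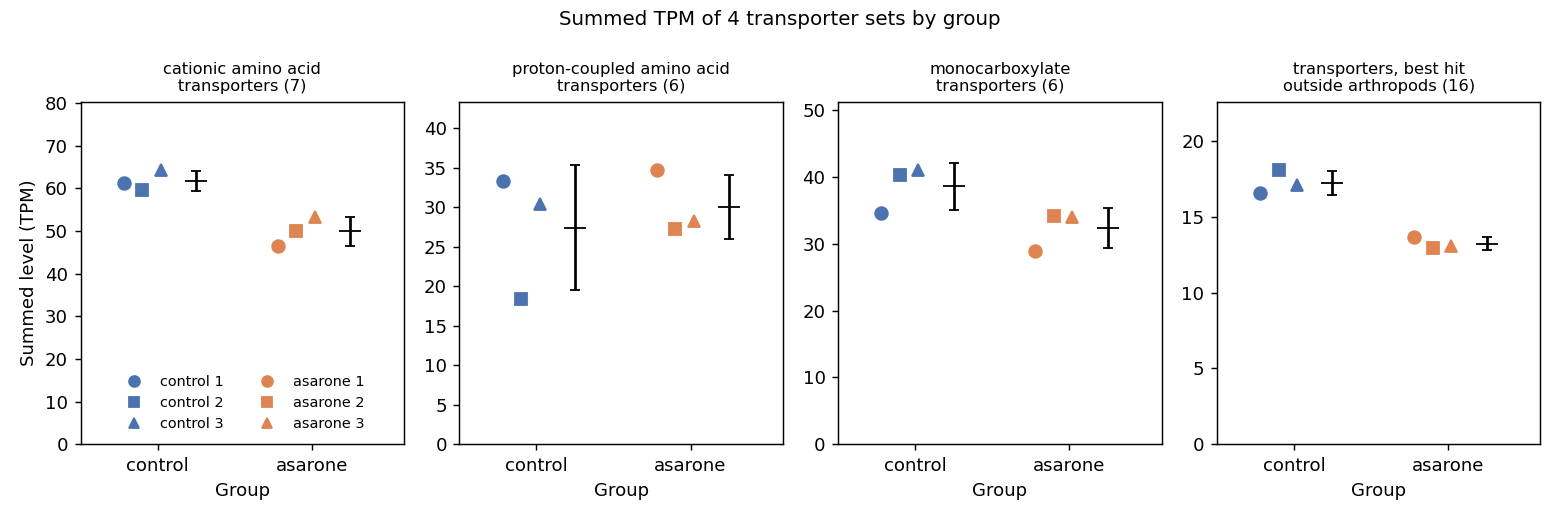
Summed TPM of 4 sets of transporter genes in each library, by group, with the group mean and SD beside the points (n = 3). Some genes are shared between sets. The cationic amino acid sums were 59.7 to 64.2 TPM in control and 46.4 to 53.3 TPM in treated insects, while the proton-coupled sums overlapped.

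The sodium/potassium-transporting ATPase exchanges sodium for potassium at the cell surface and is built from a catalytic alpha and a beta subunit. Its alpha subunit (TRINITY_DN13_c0_g1) was the most abundant transporter gene of all, at 44.9, 26.96 and 40.4 TPM in control replicates 1, 2 and 3 and 46.99, 33.9 and 37.2 TPM in asarone replicates 1, 2 and 3. Replicate 2 was lowest in each group and the groups overlapped, with a log2 change of 0.090 (95% limma interval -0.47 to 0.65). Like the alpha gene, one beta-2 gene (TRINITY_DN4840_c0_g1) was lowest in control replicate 2 and highest in asarone replicate 1, at 21.1, 13.9 and 23.4 TPM and at 27.9, 20.8 and 20.3 TPM. The other (TRINITY_DN2216_c0_g1) was highest in control replicate 2 and lowest in asarone replicate 2, at 30.4, 34.01 and 30.7 TPM and at 32.6, 27.4 and 30.8 TPM. Its within-group SD was 0.105 on the log2 scale, lower than in all but 6.13% of the tested genes. The summed beta level was 1.15, 1.78 and 1.34 times the alpha level in control replicates 1, 2 and 3 and 1.29, 1.42 and 1.37 times in asarone replicates 1, 2 and 3. The log2 changes of the beta genes were 0.25 (SE 0.24) and -0.067 (SE 0.13), or 0.036 and -0.017 without control replicate 2.

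Water was represented by 1 gene, the aquaporin AQPcic (TRINITY_DN8834_c0_g1), named after a water channel of the leafhopper filter chamber, the gut loop where that insect sheds water. It was at 18.9, 12.8 and 14.6 TPM in control replicates 1, 2 and 3 and at 19.6, 12.3 and 14.7 TPM in the asarone replicates 1, 2 and 3. The libraries with the same replicate number had nearly the same level in the 2 groups. The log2 change was 0.0035 (95% limma interval -0.53 to 0.54).

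Zinc transporters, 8 assembled genes, had sums of 22.6 ± 2.64 TPM in control insects and 23.9 ± 2.84 TPM in treated insects (SD, n = 3). Zinc transporter 2, which in mammals loads zinc into vesicles, was the steadiest transporter tested. Its main row (TRINITY_DN6012_c0_g1) was at 15.3, 15.1 and 14.0 TPM in control and at 15.6, 14.1 and 14.8 TPM in treated insects. The log2 change was 9.7e-05 with a 95% limma interval of -0.30 to 0.30. A second row of the same assembly cluster (TRINITY_DN6012_c1_g1) was at 2.32, 0.82 and 0.41 TPM and at 1.39, 0.79 and 1.03 TPM. The third (TRINITY_DN6012_c0_g2) was listed at 2.18 TPM in asarone replicate 1 and at 0 in all other libraries. Of the ZIP proteins, which bring zinc into the cytosol, ZIP11 (TRINITY_DN5416_c0_g1) was at 3.29, 1.38 and 3.09 TPM in control and 3.70, 3.52 and 2.94 TPM in treated insects. Control replicate 2 was its only low library, and its log2 change was 0.33 (SE 0.26), or 0.063 without it. ZIP3 (TRINITY_DN8192_c0_g1) was at 1.73 ± 0.547 and 1.96 ± 0.504 TPM and ZIP1-like (TRINITY_DN37762_c0_g2) at 1.31 ± 0.321 and 1.08 ± 0.378 TPM (SD, n = 3).

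Monocarboxylate transporters, a family that moves lactate, pyruvate and related acids, had 6 assembled genes. They summed to 34.6, 40.3 and 41.0 TPM in control replicates 1, 2 and 3 and to 28.96, 34.2 and 34.01 TPM in asarone replicates 1, 2 and 3. The sums did not overlap, by a narrow margin, and they did overlap after median-of-ratios scaling (31.1 TPM in control replicate 1 against up to 34.2 TPM in treated insects). Of 4 tested genes 3 stood lower, as they did under each of the 3 other scalings, and all 4 did without control replicate 2. Monocarboxylate transporter 10-like (TRINITY_DN2434_c0_g1), whose human namesake carries aromatic amino acids and whose best hit is the mosquito Aedes albopictus, was the most abundant. It was at 20.96, 29.03 and 27.2 TPM in control and at 17.5, 23.0 and 22.8 TPM in treated insects, overlapping through control replicate 1, with a log2 change of -0.27 (95% limma interval -0.72 to 0.17), or -0.15 without asarone replicate 1. Transporter 13-like (TRINITY_DN28482_c0_g1, best hit in a lancelet) was at 3.44, 4.43 and 4.05 TPM in control and 2.25, 3.36 and 3.04 TPM in treated insects. Transporter 6 (TRINITY_DN12025_c0_g1, best hit in a sea hare) was at 1.02, 1.6 and 1.93 TPM and at 0.90, 0.78 and 0.85 TPM. Neither gene overlapped between groups, with log2 changes of -0.36 (SE 0.18) and -0.43 (SE 0.22). The planthopper gene of the family, transporter 2-like (TRINITY_DN320_c0_g1), was at 7.97, 3.84 and 6.76 TPM and at 7.36, 6.27 and 6.74 TPM, with overlap and a log2 change of 0.16 (SE 0.25).

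Groups did not overlap for 4 of the 56 tested transporters, all of them lower in treated insects. Over all tested genes 8.66% did not overlap, 4.53% with treated insects above and 4.14% with treated insects below control. The 4 were cationic amino acid transporter 2 (TRINITY_DN35981_c0_g1), monocarboxylate transporters 13-like and 6 and the Tret1-like gene with a sawfly hit, and 3 of them had a best hit outside planthoppers.

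Transporters were also set out by library and best hit, as a description of 47 genes beside 9; the difference between the 2 sets was not tested. Of the 47 tested planthopper genes 29 had their lowest value in control replicate 2 and 20 their highest in asarone replicate 1. Over all tested genes these shares were 46.2% and 28.6%. The median deviation from a gene's own mean was -0.40 on the log2 scale in control replicate 2 for planthopper genes and 0.20 for the 9 others, with -0.27 over all tested genes between them. After median-of-ratios scaling it was -0.10 and 0.41, and 17 of the 47 planthopper genes still had their lowest value there. In asarone replicate 1 the medians were 0.28 and -0.17 before scaling, with 0.13 over all tested genes, and 0.15 and -0.25 after it.

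**Figure D3:**
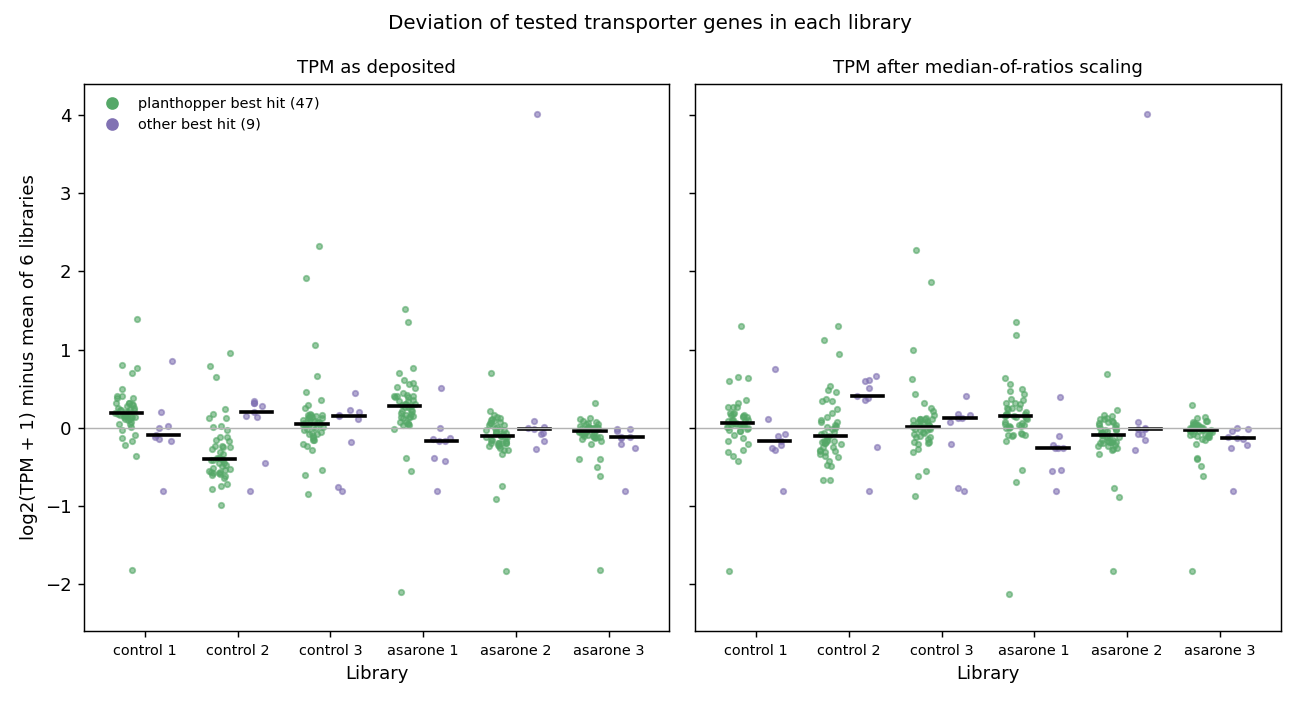
Deviation of log2(TPM + 1) from the gene's mean over 6 libraries, for 47 tested transporter genes with a planthopper best hit (green) and 9 with another best hit (purple), before (left) and after (right) median-of-ratios scaling; bars are medians. In control replicate 2 the green median lay at -0.40 and the purple at 0.20 before scaling.

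The 16 transporters with a best hit outside the arthropods had low levels, and their sums were closely spaced within each group. They summed to 16.5, 18.1 and 17.1 TPM in control replicates 1, 2 and 3 and to 13.7, 12.9 and 13.1 TPM in asarone replicates 1, 2 and 3. All treated libraries were below all control libraries, also after median-of-ratios scaling (14.9 to 23.2 against 12.2 to 13.2 TPM), and the ratio of means was 0.768. Monocarboxylate transporters 13-like and 6 were among the 16, so this sum is not independent of the monocarboxylate sum. Only 5 of them were tested, of which 4 stood lower, with a median log2 change of -0.23. Outside the transporters, 756 tested genes matched proteins of the 50 non-arthropod genera best. Of these 83.9% stood lower after treatment (median log2 change -0.16), and 22.4% lay below control without overlap. The low values of these transporters are thus shared with other genes of such best hits. Summed over all 2324 rows with such hits, untested ones included, the level overlapped between groups, at 6932 to 7565 TPM in control and 6579 to 7967 TPM in treated insects. Solute carrier family 35, many of whose members bring nucleotide sugars into the Golgi and endoplasmic reticulum, had 6 of its 7 rows among the transporters with such hits, both tested ones included. Member C2-like (TRINITY_DN52313_c0_g1) was at 1.46, 2.37 and 1.88 TPM in control and 1.41, 1.53 and 1.45 TPM in treated insects. Member E2A-like (TRINITY_DN7607_c0_g1) was at 1.04, 1.56 and 1.56 TPM and at 1.10, 1.31 and 1.24 TPM. Both overlapped, with log2 changes of -0.23 (SE 0.18) and -0.100 (SE 0.18).

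Carriers of organic ions and nucleosides, 7 assembled genes, included 1 of the most variable transporters between libraries of the same group. The organic cation transporter protein (TRINITY_DN3875_c0_g1), of the family that takes up drugs and metabolites with a positive charge in mammals, was at 9.95, 23.7 and 62.8 TPM in control replicates 1, 2 and 3. In asarone replicates 1, 2 and 3 it was at 35.5, 2.59 and 0.89 TPM. Its highest control value was 6.32 times its lowest, its highest treated value was 39.9 times its lowest, and the groups overlapped. It made up 12.6% of the summed transporter level in control replicate 3 and 0.228% in asarone replicate 3. The log2 change of -2.04 had a 95% limma interval of -4.93 to 0.85 and ran from -3.31 without asarone replicate 1 to -1.18 without asarone replicate 3, and the within-group SD of 1.83 was above 99.8% of tested genes. Without this gene the class summed to 18.6, 12.2 and 13.1 TPM in control and to 18.5, 11.5 and 13.7 TPM in treated insects. The organic anion transporter 2A1 (TRINITY_DN13878_c0_g1), a prostaglandin carrier in mammals, was at 8.40, 4.38 and 6.75 TPM and at 9.0, 5.61 and 6.01 TPM, with replicate 2 lowest in each group. Its log2 change was 0.081 (SE 0.27). Solute carrier family 22 member 21 (TRINITY_DN38215_c0_g1) was at 6.65, 2.81 and 1.5 TPM and at 5.72, 2.76 and 3.48 TPM. A second organic cation transporter row (TRINITY_DN7516_c0_g2) was at 2.30 ± 0.658 and 2.44 ± 0.0153 TPM (SD, n = 3).

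Mitochondrial carriers exchange metabolites across the inner mitochondrial membrane, and 4 assembled genes were named as such. Solute carrier family 25 member 40 (TRINITY_DN1851_c0_g1), which has a part in mitochondrial glutathione import in human cells, was at 8.30, 5.05 and 7.18 TPM in control and 8.19, 6.29 and 6.90 TPM in treated insects. The groups overlapped, with a log2 change of 0.067 (SE 0.21). The ADP,ATP carrier-like fragment (TRINITY_DN27358_c0_g1), with a horseshoe crab (Limulus polyphemus) as best hit, was listed at 27.3 TPM in asarone replicate 2 and at 0 in the other 5 libraries. It was 1 of the 2 transporters found in 1 library only, and its log2 change of 1.61 (SE 1.32) came from that library alone. The class summed to 35.2 TPM there and to 6.71 to 10 TPM elsewhere.

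**Figure D4:**
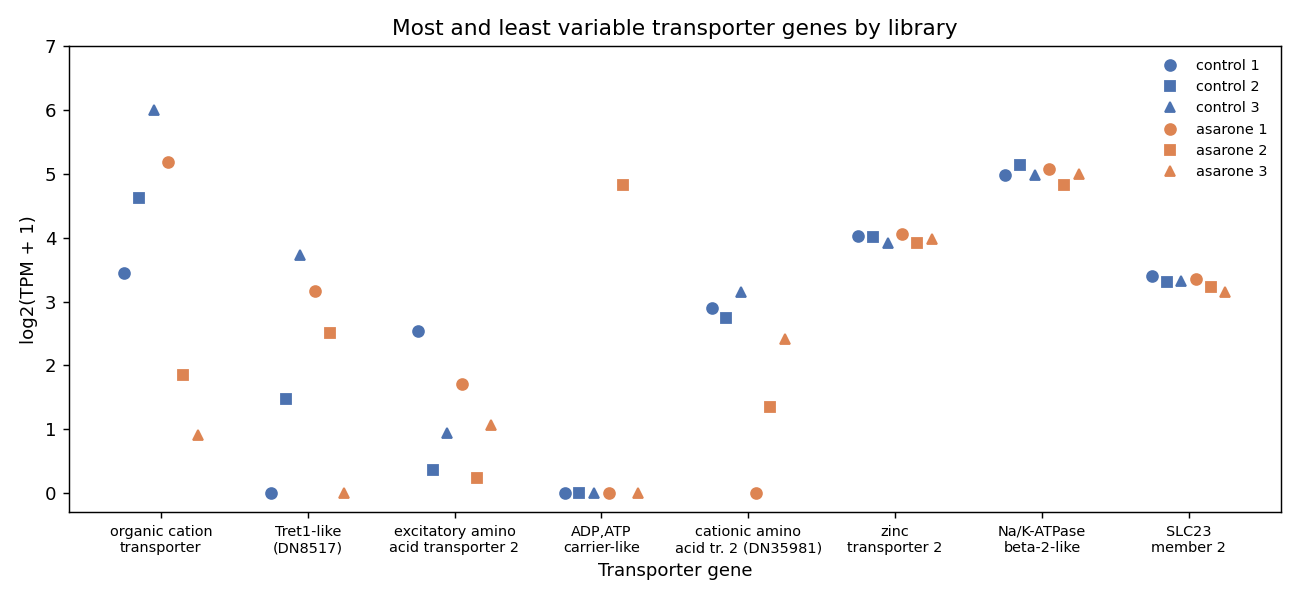
log2(TPM + 1) of 5 of the most variable and 3 of the least variable transporter genes in each library; colours are groups and marker shapes replicate numbers. The organic cation transporter spanned 0.89 to 62.8 TPM, while zinc transporter 2 stayed within 14.0 to 15.6 TPM.

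No tested gene among the remaining carriers passed the threshold. Solute carrier family 23 member 2 (TRINITY_DN3100_c0_g1), an ascorbate transporter in mammals, was at 9.52, 8.88 and 9.02 TPM in control and 9.17, 8.33 and 7.83 TPM in treated insects, a log2 change of -0.10 (95% limma interval -0.42 to 0.21). Its within-group SD was lower than in all but 2.59% of tested genes. Solute carrier family 12 member 4 (TRINITY_DN3990_c0_g1), a potassium and chloride cotransporter, was at 5.18, 1.85 and 4.24 TPM and at 5.45, 3.17 and 3.60 TPM, and replicate 2 was lowest in each group. Its log2 change was 0.14 (SE 0.34). Member 9 of that family (TRINITY_DN18760_c0_g2) had a mean under 1 TPM and was not tested. Solute carrier family 66 member 3 (TRINITY_DN6455_c0_g1) was at 5.18, 2.85 and 6.14 TPM and at 8.08, 3.89 and 2.95 TPM, and family 46 member 3 (TRINITY_DN17068_c0_g1) at 3.06 ± 0.735 and 3.02 ± 0.306 TPM (SD, n = 3). The log2 change of the former was 0.015 (SE 0.38), with a wide 95% limma interval of -0.91 to 0.94.

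**Figure D5:**
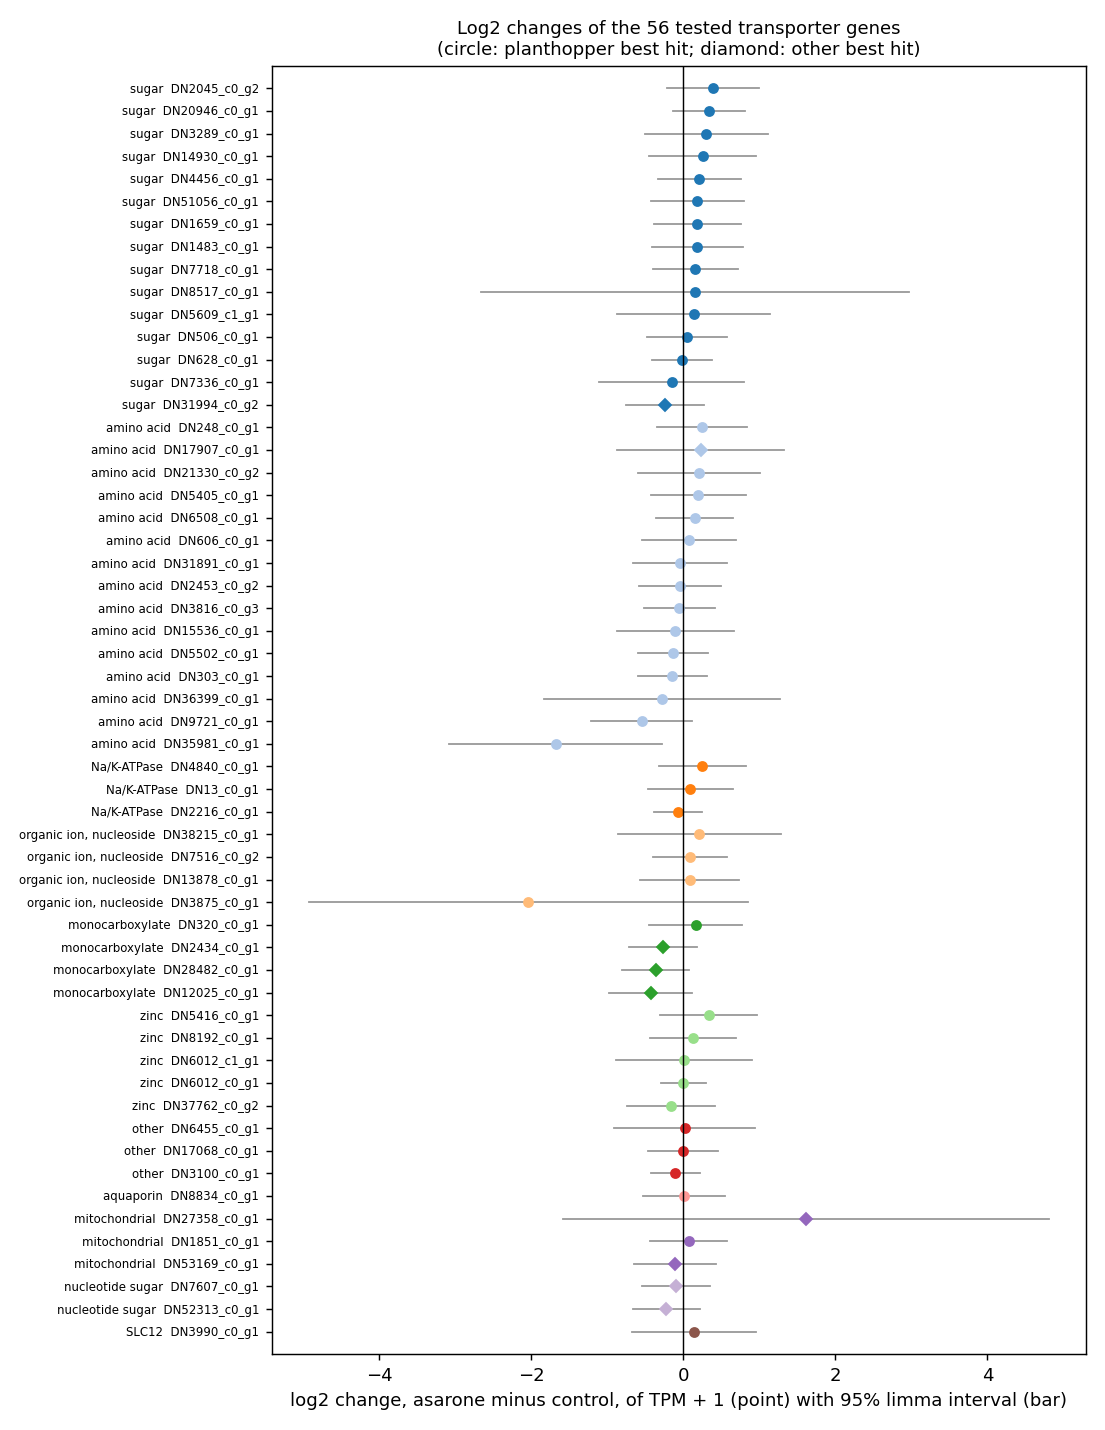
Log2 change of TPM + 1, asarone minus control, with its 95% limma interval, for the 56 tested transporter genes ordered by class; circles have a planthopper best hit and diamonds another. The interval of cationic amino acid transporter 2 (DN35981) was the only one that did not include 0.

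Other transport genes were described from lists of words. The V-type proton ATPase, whose proton gradient drives many carriers, had 14 rows, of which 12 were tested, with 6 higher, 6 lower and 0 past the threshold. Their median log2 change was -0.00015. All 6 lower rows had a best hit outside planthoppers. Every tested row with a planthopper best hit stood higher (log2 changes 0.014 to 0.27), as did a row with a mite hit. The difference between these sets was not tested. Of the 12 tested rows 3 stood higher and 9 lower after median-of-ratios or trimmed-mean scaling, with a median of -0.081 after the former. The split was 4 and 8 after quantile normalization or without control replicate 2. Subunit B of the V-type proton ATPase (TRINITY_DN3486_c0_g1) averaged 94.6 ± 9.90 TPM in control and 98.99 ± 4.97 TPM after treatment, and subunit A (TRINITY_DN2794_c0_g1) 44.3 ± 13.5 and 50.3 ± 6.11 TPM (SD, n = 3). Of 46 other carriers and pumps 22 were tested, 15 higher and 7 lower, with a median log2 change of 0.090, 0 past the threshold and 2 at an unadjusted limma p under 0.05, where 62.8% of all tested genes stood higher and 3.47% had such a p. Quantile normalization or median-of-ratios scaling gave 11 and 11, trimmed-mean scaling 12 and 10, and leaving out control replicate 2 gave 9 and 13. The 2 genes were the calcium pump of the endoplasmic reticulum (TRINITY_DN11938_c0_g3) and a proton myo-inositol cotransporter fragment with a spider as best hit (TRINITY_DN37972_c0_g1), named after their values were seen. The pump averaged 12.4 ± 2.67 TPM in control and 20.8 ± 3.84 TPM after treatment (SD, n = 3), with a log2 change of 0.71. The cotransporter averaged 1.98 ± 0.169 and 1.21 ± 0.0781 TPM, with a log2 change of -0.43, and neither overlapped between groups.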

How the data were processed

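The authors deposited 1 TPM value per gene and library, scaled by transcript length and library total. Although the file's name says FPKM, each library sums to 1000000 within rounding, as TPM does, and the limma test planned for FPKM was kept. Tools listed in the submitters' processing notes, with no step, are HISAT2 2.0.4, StringTie 1.3.4d, cutadapt 1.9, DESeq2 and edgeR. The quantifier and genome build were not given in the sources used here. Without depth no counting intervals can be given, and a 0 can be a failed estimate. The authors' group means were not used.

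Genes averaging 1 TPM or more (24816) were tested with limma 3.58.1 in R 4.3.3 (trend, robust) on log2(TPM + 1), which understates changes of low genes. The test was two-sided, with Benjamini-Hochberg adjustment over all tested genes and a threshold of 0.05. It was checked on simulated data. Transporters were put in 11 classes by words, with 1 nucleotide-sugar transporter moved from the sugar class. Members and lists were chosen with earlier results of these data known. Named were the 2 most abundant members and the smallest p of each class, non-overlapping members with a mean of at least 5 TPM (0 qualified), and those found in 1 library only. Other named members were chosen after their values were seen. Same-numbered libraries of the 2 groups had deviations correlated at 0.157, 0.081 and -0.035, and libraries of different numbers at -0.139 to 0.061. The numbers were not taken as pairs in the main fit, and a replicate block was run as an alternative. Figures were drawn with matplotlib 3.10.9.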

Additional observations from a re-analysis of the deposited data

How the results depend on the processing

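Transporters past the threshold stayed at 0 under all 15 alternatives. For 28 of the members named above each test under an alternative was followed. Of these 410 tests 0 passed, and the smallest limma adjusted p was 0.677. Other members named above, among them the variable TRINITY_DN8517_c0_g1, were not in the 410 tests. Over all genes tested, 1 passed, as with a pseudocount of 0.5 and with limma without trend or robust. The number was 0 with the replicate block, without any single library (0 to 0), after quantile, trimmed-mean or median-of-ratios scaling, for genes averaging 5 TPM or more, without a filter, and when the pseudocount was 0.1. The replicate block changed no transporter call. The median log2 change of the transporters was -0.086 to 0.21 and the ratio of their summed levels 0.894 to 1.03 on leaving out a library. Both moved by less than the spread between libraries under every alternative, including the one without genes found in 1 library only, which was chosen after seeing the data (0.047 and 0.951). Of the 28 members followed in this way 16 kept their direction throughout.

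Log2 changes that turned sign under median-of-ratios, trimmed-mean and, where another value follows, quantile scaling were -0.015 and -0.0098 (TRINITY_DN13_c0_g1), -0.10, -0.098 and -0.068 (TRINITY_DN6012_c0_g1), -0.025, -0.020 and -0.041 (TRINITY_DN1851_c0_g1), -0.0098, -0.0052 and -0.029 (TRINITY_DN13878_c0_g1), -0.069, -0.065 and -0.080 (TRINITY_DN6455_c0_g1) and -0.098, -0.093 and -0.063 (TRINITY_DN8834_c0_g1). Leaving out 1 library gave -0.12 to 0.23 (TRINITY_DN13_c0_g1), -0.25 to 0.011 (TRINITY_DN303_c0_g1), -0.26 to 0.068 (TRINITY_DN2453_c0_g2), -0.19 to 0.37 (TRINITY_DN3990_c0_g1), -0.036 to 0.034 (TRINITY_DN6012_c0_g1) and -0.11 to 0.20 (TRINITY_DN1851_c0_g1). It gave -0.10 to 0.34 (TRINITY_DN320_c0_g1), -0.14 to 0.26 (TRINITY_DN13878_c0_g1), -0.33 to 0.27 (TRINITY_DN6455_c0_g1), -0.0076 to 0.35 (TRINITY_DN7718_c0_g1), -0.063 to 0.35 (TRINITY_DN1659_c0_g1) and -0.17 to 0.15 (TRINITY_DN8834_c0_g1). The cause was not tested. Depth is unknown, so what it limits cannot be stated.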
